A study of Mus musculus with 6 samples.

Results

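The genes described are 9 members of the EGF signalling family, 6 that encode ligands (Areg, Ereg, Hbegf, Tgfa, Btc and Nrg1) and 3 that encode ErbB receptors (Egfr, Erbb2 and Erbb3). They were taken by symbol from the 49671 genes of each count table, and all 9 passed the filter on low counts that 15608 genes passed. RNA sequencing covered 6 libraries, 3 of a GFP and 3 of a Tomato cell fraction, each sorted out of orthotopic pancreatic tumours. All hosts were C57BL/6J mice with the Rosa-mTmG reporter and a Fabp4-Cre transgene, given FC1199 pancreatic cancer cells at 8 weeks of age and examined after 4 weeks of tumour growth, at 12 weeks. Rosa-mTmG makes every cell red with Tomato until Cre switches it to GFP, and here Cre was driven by the Fabp4 promoter. Podoplanin-positive cells were sorted by colour, and per the labels GFP marks cancer-associated fibroblasts (CAFs) derived from stellate cells and Tomato marks CAFs of another origin. The comparison asks in which genes CAFs of the stellate lineage (GFP) and other CAFs (Tomato) differ.

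EGF family ligands are made as precursors anchored in the cell membrane and are cut free by metalloproteases, of which ADAM17 is the best known. Released or membrane-bound ligand brings receptors of the ErbB family together in pairs, which switches on the RAS and ERK and the PI3K pathways. Amphiregulin, epiregulin, HB-EGF, TGF-alpha and betacellulin bind the EGF receptor, and neuregulin 1 binds ErbB3 and ErbB4. ErbB2 has no known soluble ligand and acts as a partner, and ErbB3 has a weak kinase and signals through its partner. In tumours, fibroblasts are one known source of these ligands.

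The promoters of 5 of the 9 members were in the RefSeq table used (build GRCm38.p6). The 3 ligand genes with a negative log2 fold change (GFP over Tomato) and an entry are shown with Egfr, the most abundant receptor gene, as the 250 bases that end just before the annotated start, read 5′ to 3′ on the strand of the gene. Areg lies at chr5:91139349-91139598 on the plus strand, Tgfa at chr6:86194972-86195221 on the plus strand, Btc at chr5:91402995-91403244 on the minus strand and Egfr at chr11:16751953-16752202 on the plus strand. Capitals mark matches, on either strand, to the searched motifs.
Areg: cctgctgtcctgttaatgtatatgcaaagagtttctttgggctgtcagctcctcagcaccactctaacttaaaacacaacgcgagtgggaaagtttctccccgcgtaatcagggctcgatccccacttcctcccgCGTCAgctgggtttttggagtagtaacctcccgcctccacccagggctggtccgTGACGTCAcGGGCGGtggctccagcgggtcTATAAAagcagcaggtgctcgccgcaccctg
Tgfa: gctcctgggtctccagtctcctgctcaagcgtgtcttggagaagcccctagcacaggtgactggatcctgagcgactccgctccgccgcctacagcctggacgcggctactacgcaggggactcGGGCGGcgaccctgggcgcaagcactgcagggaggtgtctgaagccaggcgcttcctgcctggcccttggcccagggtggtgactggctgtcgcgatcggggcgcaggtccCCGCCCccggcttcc
Btc: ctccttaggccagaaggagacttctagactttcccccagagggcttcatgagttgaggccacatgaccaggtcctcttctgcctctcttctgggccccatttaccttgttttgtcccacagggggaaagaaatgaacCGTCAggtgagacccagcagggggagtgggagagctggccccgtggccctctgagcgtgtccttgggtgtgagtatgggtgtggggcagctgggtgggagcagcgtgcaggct
Egfr: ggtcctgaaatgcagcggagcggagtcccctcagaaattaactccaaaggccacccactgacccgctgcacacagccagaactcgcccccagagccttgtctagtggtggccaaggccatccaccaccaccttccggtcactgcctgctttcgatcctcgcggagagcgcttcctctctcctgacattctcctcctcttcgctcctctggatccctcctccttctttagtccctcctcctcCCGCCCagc
The letters searched for, in these bases and the 50 after the start, were the AP-1 motif (TGANTCA), TGACGTCA and its short form TGACG (cyclic AMP response element), TATAAA (core promoter box), GGGCGG (GC box) and GGAATG (TEAD). TGACGTCA was found in Areg alone among these 5 promoters, at positions -61 to -54 from the start, and in 1.79% of the 32851 promoters of the table. The short form TGACG lay in Areg, also within TGACGTCA, in Btc and in Erbb2, and in 20.8% of all promoters. TATAAA was found in Areg, at -31 to -26, and in 13.6% of all promoters. GGGCGG lay in Areg, Tgfa and Egfr, and in 35.7% of all promoters. GGAATG lay in Erbb2 and in 14.7% of all promoters. TGANTCA, which 7.81% of all promoters hold, was in none of the 5. The 3 ligand promoters shown shared no motif other than by pairs, with TGACG in Areg and Btc and GGGCGG in Areg and Tgfa.

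Libraries held 33378377 to 42154933 counts each. Levels are given as CPM, counts scaled to library size with TMM, a method that sets libraries on a common scale by the bulk of their genes. The labelled cell type was checked against 6 fibroblast genes, all abundant in both fractions, of which 4 were higher in GFP and Dcn (-0.10) and Lum (0.30) did not pass. Their summed level, mostly that of the collagen genes Col1a1 and Col1a2, was 63488 to 71752 CPM in GFP and 29514 to 43633 CPM in Tomato libraries. Markers of other cells were present too and differed between the fractions. Of 7 mesothelial markers 6 were lower in GFP (summed level 153 to 168 CPM in GFP, 1120 to 1514 CPM in Tomato). These 6 had log2 fold changes of -5.41 to -2.84. The other, Wt1 (103 CPM in GFP, 106 CPM in Tomato, -0.03), did not pass and made most of the GFP sum. All 6 epithelial and cancer cell markers were lower (58.3 to 78.5 CPM in GFP, 527 to 631 CPM in Tomato), as were all 7 macrophage markers (41.2 to 55.2 CPM in GFP, 178 to 394 CPM in Tomato) and all 4 neutrophil markers (1.64 to 3.24 CPM in GFP, 20.9 to 30.2 CPM in Tomato). The epithelial and cancer cell sum was mostly that of the keratin genes Krt8, Krt18, Krt19 and Krt7. These had 82.1 to 173 CPM on average in Tomato (log2 fold changes -3.56 to -2.91). Epcam (12.3 CPM, -1.32) and Cdh1 (11.9 CPM, -1.74) were far lower there. The mesothelial markers Msln, Upk3b and Upk1b had 312, 276 and 175 CPM on average in Tomato. Which cells made the keratin RNA was not tested. Of 4 lymphatic endothelial markers 3 were higher (146 to 238 CPM in GFP, 12.7 to 38.8 CPM in Tomato) and Ccl21a had no count in any library. Higher too were 3 of 4 endothelial markers (summed level 81.8 to 128 CPM in GFP, 52.4 to 68.7 CPM in Tomato). These were Pecam1, Tie1 and Cdh5 (log2 fold changes 2.16, 3.13 and 3.23). The other, Kdr (37.9 CPM in GFP, 49.7 CPM in Tomato, -0.39), did not pass and made most of the Tomato sum. Of 4 pericyte markers 1 was higher and 1 lower (46.6 to 80.0 CPM in GFP, 44.3 to 55.0 CPM in Tomato). None of these mesothelial, epithelial, macrophage or neutrophil markers was at 0 in either fraction. In sorted bulk samples fewer cells of a type and less RNA per cell cannot be told apart.

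Of the 9 members, 1 was higher and 2 were lower in GFP by edgeR at an adjusted p under 0.05, where 13.1% of all genes tested were higher and 15.7% lower (28.9% in all). The gene higher in GFP was Nrg1, and the genes lower in GFP were Tgfa and Erbb3. The median log2 fold change (GFP over Tomato) of the 9 was -0.18, against 0.00 for all genes tested, with a range from -1.84 to 0.53. For 4 of the 9 members every GFP library lay on the same side of every Tomato library (1 higher, Egfr, and 3 lower, Tgfa, Btc and Erbb3). Over all genes tested 23.4% were higher and 25.2% lower in this way, 48.6% in all. With the replicate number as a block, 3 members were higher and 4 lower, where 20.1% and 20.9% of all genes tested were.

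Levels of different genes were compared per length, as RPKM (CPM per kilobase of annotated exon). Ereg, which encodes epiregulin, had the highest mean, at 22.8 RPKM in GFP and 18.3 RPKM in Tomato. Egfr followed at 17.4 ± 2.74 RPKM in GFP and 13.1 ± 1.79 RPKM in Tomato (SD, n = 3), and Hbegf was next at 9.53 ± 1.71 RPKM in GFP and 10.8 ± 0.562 RPKM in Tomato. Receptor RNA was thus mostly Egfr, which made 76.3% ± 2.36 of the summed receptor RPKM in GFP and 72.9% ± 2.41 in Tomato (exact permutation test, two-sided, p = 0.2). In GFP the order went on with Erbb2, Areg, Nrg1, Tgfa, Btc and Erbb3, in which Erbb2 overlapped Areg and Tgfa overlapped Btc between libraries. In Tomato it went on with Areg, Erbb2, Tgfa, Nrg1, Btc and Erbb3, in which Hbegf overlapped Areg, Areg overlapped Erbb2, and Nrg1 overlapped Btc. Erbb3 was the lowest in both, at 0.118 ± 0.0358 RPKM in GFP and 0.426 ± 0.0689 RPKM in Tomato. The rank of Ereg over Egfr depended on the lengths used (4128 and 11326 bases of exon). In CPM, Egfr lay above Ereg, at 197 against 93.9 CPM in GFP and 148 against 75.4 CPM in Tomato.

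**Figure D1:**
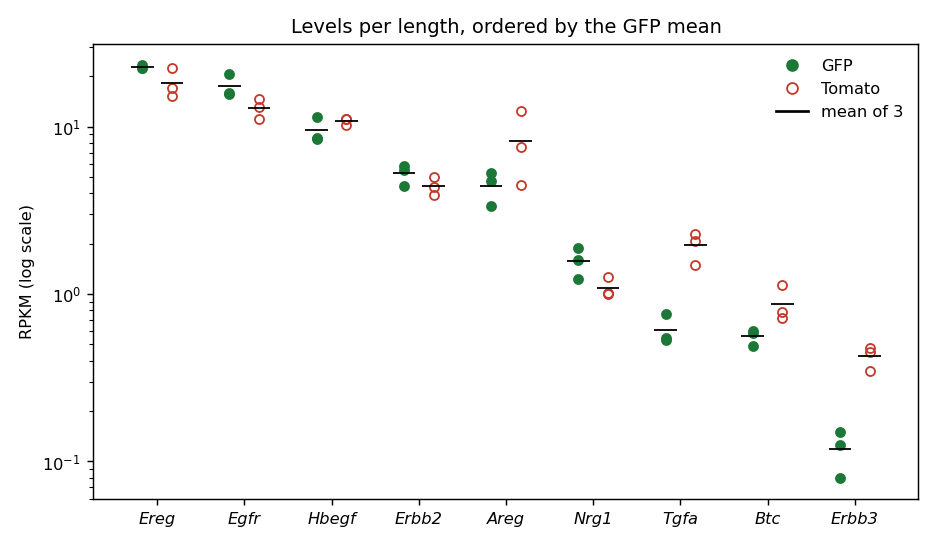
RPKM (log axis) of the 9 members in each library, GFP (filled) left of Tomato (open), ordered by the GFP mean, with the mean of 3 libraries as a line. Ereg and Egfr are at the top, above 11 RPKM in every library, and Erbb3 is at the bottom, below 0.5 RPKM in every library.

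Tgfa encodes TGF-alpha, a ligand of the EGF receptor, and lies on chromosome 6 (86195223 to 86275719, plus strand, GRCm38). It had 3.53, 3.46 and 4.90 CPM in GFP libraries 1 to 3, against 9.70, 13.5 and 14.9 CPM in Tomato libraries 1 to 3. Every GFP library lay below every Tomato library. The level was 3.20-fold lower in GFP, a log2 fold change of -1.68 ± 0.21 (SE, 95% interval -2.15 to -1.21, adjusted p = 0.00105, edgeR). The call was kept in all 19 alternatives, between -1.86 and -1.56. The mesothelial, epithelial, macrophage and neutrophil markers given above were lower in the same GFP libraries, and their part in this result was not tested.

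Areg encodes amphiregulin, a ligand of the EGF receptor that epithelium and white blood cells also make. It had 4.07, 5.73 and 6.40 CPM in GFP, against 5.46, 9.14 and 15.2 CPM in Tomato. The lowest Tomato library lay within the GFP range, and the difference did not pass (log2 fold change -0.88 ± 0.36, 95% interval -1.72 to -0.03, adjusted p = 0.106). With the replicate number as a block it passed (-0.80, adjusted p = 0.00639), and GFP was lower than Tomato of the same number in 3 of 3 pairs. When length and GC offsets were added it did not pass, either with the block (-0.38, adjusted p = 0.0777) or alone (-0.44, adjusted p = 0.321). It passed with DESeq2 (adjusted p = 0.0299) and without Tomato replicate 1 (-1.18, adjusted p = 0.0097). Without Tomato replicate 3 the log2 fold change was -0.44. Areg and the summed macrophage markers (178, 273 and 394 CPM in Tomato libraries 1 to 3) were both lowest in replicate 1 and highest in replicate 3. The members Ereg, Tgfa and Nrg1 had this order in Tomato as well, Btc, Egfr and Erbb3 had the reverse order, and Hbegf and Erbb2 had neither. The epithelial and cancer cell (527, 591 and 631 CPM) and pericyte (44.3, 50.6 and 55.0 CPM) sums had the order of Areg. The fibroblast (43633, 35894 and 29514 CPM), lymphatic endothelial (38.8, 24.3 and 12.7 CPM) and Schwann cell (4.55, 3.91 and 3.15 CPM) sums had the reverse order. The mesothelial, neutrophil and endothelial sums had neither. The part of any of these cells was not tested.

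Btc encodes betacellulin, a ligand of the EGF receptor and of ErbB4. It was low, with 2.64, 2.72 and 2.23 CPM in GFP and 5.11, 3.55 and 3.23 CPM in Tomato. The fractions did not overlap, with GFP below Tomato. The difference just missed the threshold (log2 fold change -0.65 ± 0.22, 95% interval -1.15 to -0.15, adjusted p = 0.0558) and passed with the block (-0.63, adjusted p = 0.0234), with DESeq2 (adjusted p = 0.0399) and without Tomato replicate 3 (-0.79, adjusted p = 0.0332). Without Tomato replicate 1, in which Btc was highest, the log2 fold change was -0.43 (adjusted p = 0.153). The difference did not pass in 12 of 19 alternatives. Among those were also limma-voom (adjusted p = 0.0653) and the fits without GFP replicate 1 (adjusted p = 0.122), GFP replicate 2 (adjusted p = 0.101) or GFP replicate 3 (adjusted p = 0.154).

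Ereg encodes epiregulin, a ligand of the EGF receptor and ErbB4. Its level was 96.8, 92.9 and 92.0 CPM in GFP, against 62.6, 70.1 and 93.3 CPM in Tomato. Tomato replicate 3 lay within the GFP range and the other two Tomato libraries lay below it. The difference did not pass (log2 fold change 0.32 ± 0.14, adjusted p = 0.118), but passed without Tomato replicate 3 (0.49, adjusted p = 0.00577) and when length and GC offsets were added, both alone (0.44, adjusted p = 0.0416) and with the block (0.46, adjusted p = 0.0163). The block alone gave 0.34 (adjusted p = 0.0511), and scaling by library size alone gave 0.14 (adjusted p = 0.518). The difference did not pass in 16 of 19 alternatives.

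Hbegf, which encodes heparin-binding EGF-like growth factor, had 41.7, 41.0 and 55.6 CPM in GFP and 54.1, 49.1 and 53.5 CPM in Tomato. The fractions overlapped, since GFP replicate 3 was the highest of all 6 libraries. The log2 fold change was -0.18 ± 0.13 (95% interval -0.47 to 0.11, adjusted p = 0.314), and it did not pass in any of the 19 alternatives.

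Nrg1 encodes neuregulin 1, a ligand of ErbB3 and ErbB4, and lies on chromosome 8 (31814551 to 32884029, minus strand). It had 16.6, 12.7 and 19.5 CPM in GFP, against 10.4, 10.5 and 13.0 CPM in Tomato. GFP replicate 2 lay just below Tomato replicate 3, and the other GFP libraries lay above all Tomato libraries. The log2 fold change was 0.53 ± 0.17 (95% interval 0.14 to 0.91), and its adjusted p of 0.0489 was just under the threshold. GFP was higher in 3 of 3 numbered pairs. The call was lost in 10 of 19 alternatives, in which the log2 fold change stayed between 0.36 and 0.59. Among those were the fits without GFP replicate 1 (0.51, adjusted p = 0.124), GFP replicate 3 (0.38, adjusted p = 0.16), Tomato replicate 1 (0.46, adjusted p = 0.092) and Tomato replicate 2 (0.47, adjusted p = 0.151), and scaling by library size alone (0.36, adjusted p = 0.167). An antisense gene, Gm26578, shares 482 exon bases with Nrg1, and the strand columns summed to 109% of the count for both strands. Part of the reads there are thus not in the count for both strands. The summed lymphatic endothelial and fibroblast markers given above were higher in the same GFP libraries, and their part in this result was not tested.

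**Figure D2:**
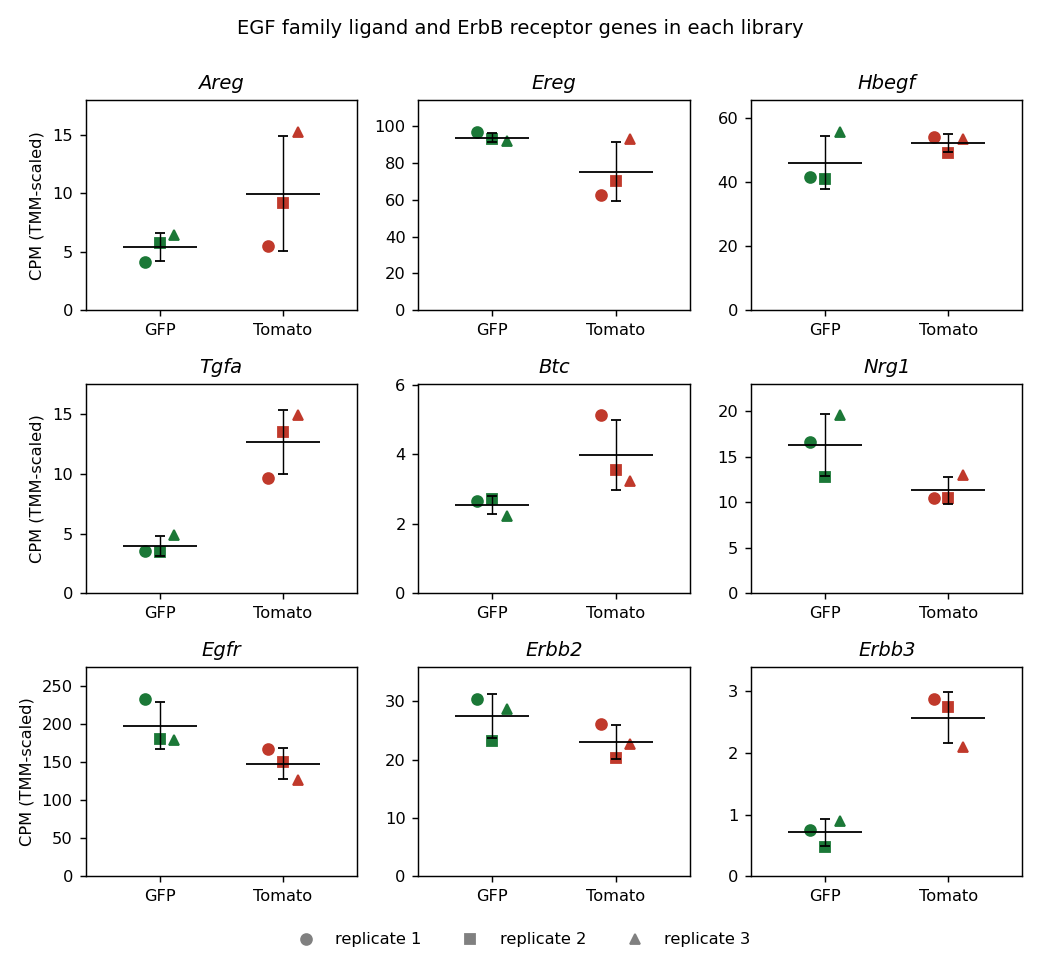
CPM of the 9 members in each library, GFP left of Tomato, with the mean as a line, SD as an error bar (n = 3) and a marker shape for each replicate number. Tgfa, Btc and Erbb3 are lower in every GFP library than in any Tomato library, and Egfr is higher.

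Egfr encodes the EGF receptor and lies on chromosome 11 (16752203 to 16918158, plus strand). It had 233, 180 and 179 CPM in GFP, against 167, 150 and 127 CPM in Tomato. Every GFP library lay above every Tomato library. The difference was 1.33-fold and just missed the threshold (log2 fold change 0.42 ± 0.14, 95% interval 0.10 to 0.73, adjusted p = 0.0543). With the block it passed (0.41, adjusted p = 0.00531), as it did when the block was joined to the length and GC offsets (0.32, adjusted p = 0.00873), with DESeq2 (adjusted p = 0.0292) and without Tomato replicate 1 (0.50, adjusted p = 0.026). It did not pass in 13 of 19 alternatives. Among those were the fits without GFP replicate 1 (0.28, adjusted p = 0.179), Tomato replicate 2 (0.42, adjusted p = 0.136) and Tomato replicate 3 (0.31, adjusted p = 0.124). Scaling by library size alone gave 0.25 (adjusted p = 0.149).

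Erbb2, which encodes the receptor with no known soluble ligand, had 30.4, 23.2 and 28.7 CPM in GFP and 26.1, 20.3 and 22.6 CPM in Tomato. The fractions overlapped, but within each number GFP was the higher, in 3 of 3 pairs. The log2 fold change of 0.25 ± 0.14 did not pass (95% interval -0.05 to 0.56, adjusted p = 0.186) and passed with the block (0.25, adjusted p = 0.042), but not when length and GC offsets joined the block (0.22, adjusted p = 0.051). Scaling by library size alone gave 0.09.

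Erbb3, which encodes the receptor of neuregulins with a weak kinase, lies on chromosome 10 (128567523 to 128589652, minus strand). It rested on few reads, with 28, 16 and 32 counts in GFP libraries and 123, 106 and 77 counts in Tomato libraries. This gave 0.754, 0.478 and 0.902 CPM in GFP and 2.87, 2.73 and 2.09 CPM in Tomato. The fractions did not overlap, and the level was 3.59-fold lower in GFP (log2 fold change -1.84 ± 0.28, 95% interval -2.49 to -1.20, adjusted p = 0.0027). The call was kept in all 19 alternatives, between -2.04 and -1.63. All 6 epithelial and cancer cell markers, among them Krt8 (log2 fold change -3.56) and Epcam (-1.32), were lower in the same GFP libraries. So were 6 of 7 mesothelial markers and all macrophage and neutrophil markers. In Tomato libraries 1 to 3 the epithelial and cancer cell sum was 527, 591 and 631 CPM and the mesothelial sum 1398, 1514 and 1120 CPM. The macrophage sum was 178, 273 and 394 CPM and the neutrophil sum 22.4, 20.9 and 30.2 CPM. Of the Schwann cell markers, cells known for ErbB3, Sox10 had no count in GFP and 0.00778 CPM on average in Tomato, and the 5 summed to 5.12 to 5.28 CPM in GFP and 3.15 to 4.55 CPM in Tomato. The part of other cell types in the Erbb3 result was not tested.

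**Figure D3:**
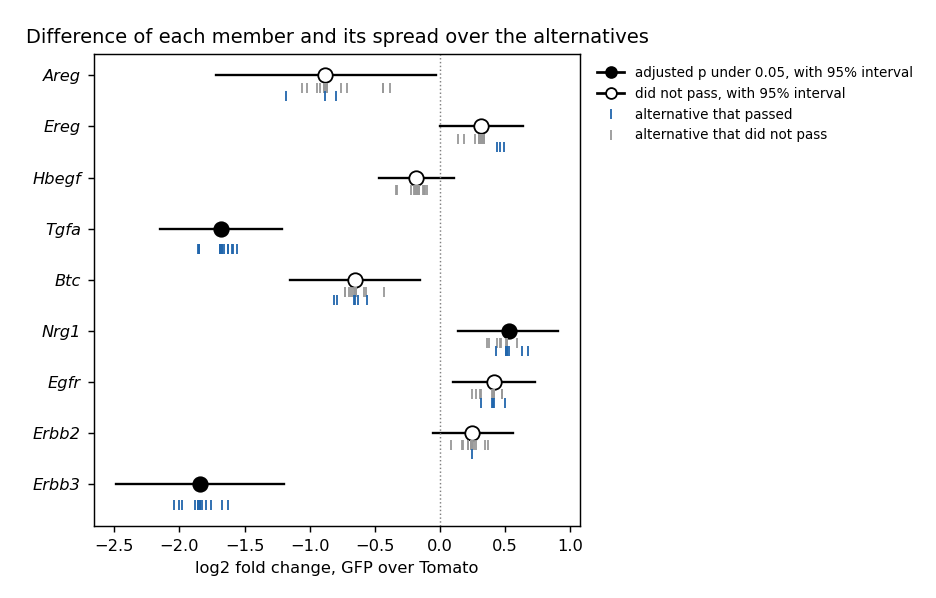
Log2 fold change of each member, GFP over Tomato, with its 95% interval (filled circle, adjusted p under 0.05; open circle, did not pass), and beneath it the values of the other fits, in blue where they passed and grey where they did not. Tgfa and Erbb3 pass in every fit, Hbegf in none, and the others in some.

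The makeup of the ligand RNA was described as the share of each ligand in the summed RPKM of the 6. The sum was 39.5 ± 2.35 RPKM in GFP and 41.2 ± 8.31 RPKM in Tomato and did not differ beyond the spread (exact permutation test, two-sided, p = 0.8). Ereg made 61.5%, 59.1% and 52.8% of it in GFP and 44.0%, 44.1% and 44.8% in Tomato, a difference of 13.5 percentage points. Areg made 8.77%, 12.4% and 12.5% in GFP and 13.0%, 19.5% and 24.8% in Tomato, and Tgfa 1.42%, 1.40% and 1.79% in GFP and 4.34%, 5.40% and 4.55% in Tomato. The share of Nrg1 was 3.96% ± 0.645 in GFP and 2.68% ± 0.207 in Tomato. For Ereg, Areg, Tgfa and Nrg1 the fractions did not overlap, with p = 0.1 by the exact permutation test for each, the smallest that 3 against 3 libraries allow (0.15 adjusted over the 6 shares). The shares of Hbegf (24.0% ± 2.80 in GFP, 26.9% ± 5.28 in Tomato, exact p = 0.7) and Btc (1.43% ± 0.224 in GFP, 2.24% ± 0.948 in Tomato, exact p = 0.3) overlapped. The difference in the Areg share was -7.90 percentage points, and -5.06 without Tomato replicate 3. Without Tomato replicate 1 the differences of Hbegf (-2.85) and Btc (-0.819) were -0.0851 and -0.302. Since shares sum to a whole, a higher share of one ligand cannot be told apart from a lower share of others.

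**Figure D4:**
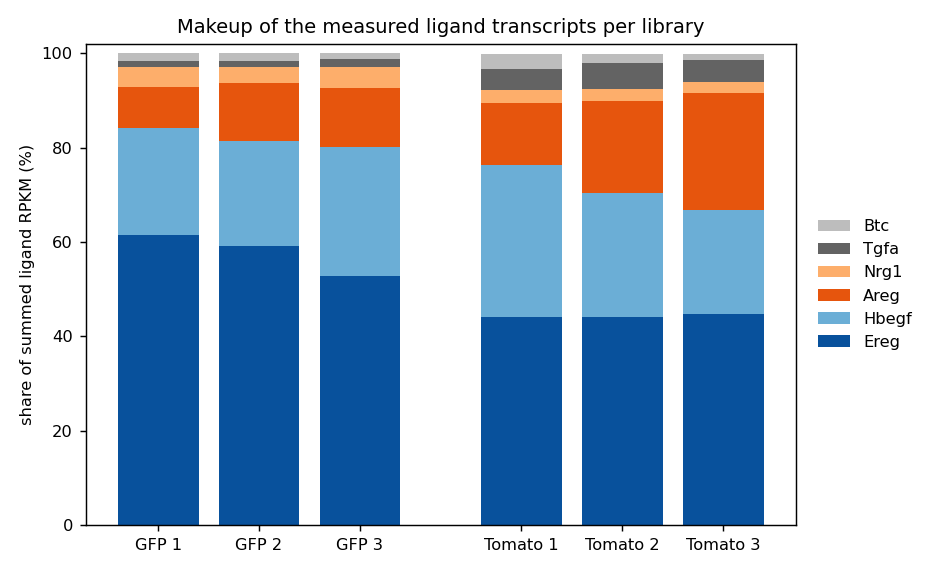
Share (%) of each ligand in the summed ligand RPKM of each library, as stacked bars that fill from 0 to the whole, with the 3 GFP libraries left of the 3 Tomato libraries. The Ereg bar spans 52.8% to 61.5% in GFP and 44.0% to 44.8% in Tomato.

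Several of the ligand genes are neighbours on chromosome 5, where Epgn (91027464 to 91035215), Ereg (91074622 to 91093646), Areg (91139599 to 91148432) and Btc (91357261 to 91402994) follow each other. The ligand genes of this cluster had log2 fold changes of -2.84, 0.32, -0.88 and -0.65 in that order, so Ereg alone had a positive value, which did not pass. The ratio of Ereg to Areg RPKM was 7.01, 4.77 and 4.23 in GFP and 3.38, 2.26 and 1.81 in Tomato, without overlap (exact permutation test, two-sided, p = 0.1, the smallest possible). Of the other family members, Epgn, which encodes epigen, had 4, 5 and 9 counts in GFP and 18, 39 and 85 counts in Tomato (adjusted p = 0.0188). The Epgn call was lost without GFP replicate 1 (-2.59, adjusted p = 0.068) and GFP replicate 2 (-2.76, adjusted p = 0.0658). Whether other cell types had a part in the Epgn result was not tested. Egf, which encodes epidermal growth factor, was higher in GFP but low in both, with 20, 37 and 30 counts in GFP and 13, 12 and 9 counts in Tomato (log2 fold change 1.52 ± 0.36, adjusted p = 0.0169). That call was lost without GFP replicate 2 (1.27, adjusted p = 0.0596), GFP replicate 3 (1.51, adjusted p = 0.0511) or Tomato replicate 2 (1.58, adjusted p = 0.0559). Nrg2 did not pass (1.36 ± 0.498 CPM in GFP, 0.949 ± 0.0980 CPM in Tomato, adjusted p = 0.252). Nrg4 stayed at 4 to 9 counts in every library and was not tested. Erbb4, which encodes the fourth receptor, and the ligand gene Nrg3 had no count in any library, where a count of 0 allows up to 0.0895 CPM in the shallowest case (3 counts per library).

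Of the 66 genes in 5 lists of the pathway beyond the members, 63 were tested, of which 16 were higher and 6 lower in GFP, with a median log2 fold change of 0.21. Over all genes tested 13.1% were higher and 15.7% lower, with a median of 0.00, and the counts of each list are to be read against these shares. With the replicate number as a block 25 were higher, where 20.1% of all genes tested were. Without Tomato replicate 2, GFP replicate 1 or GFP replicate 3, 5, 7 and 9 were higher, and without GFP replicate 1, 3 were lower.

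Among 10 genes of ligand shedding 4 were higher and 1 lower (median 0.21). Adam12 (188 ± 32.7 CPM in GFP, 86.1 ± 10.2 CPM in Tomato, 1.13 on the log2 scale, adjusted p = 0.00127) and Adam19 (108 ± 18.2 CPM in GFP, 43.5 ± 8.29 CPM in Tomato, 1.31, adjusted p = 0.00131), metalloproteases of the same family as ADAM17, were higher. Adam17 itself did not pass (0.14, adjusted p = 0.427), nor did Adam10 (0.27, adjusted p = 0.143). Rhbdf2, which encodes the inactive rhomboid protein that carries ADAM17 to the cell surface, was lower (16.3 ± 2.27 CPM in GFP, 30.2 ± 9.92 CPM in Tomato, -0.89, adjusted p = 0.0214). Its relative Rhbdf1 was higher (99.1 ± 6.53 CPM in GFP, 73.8 ± 9.04 CPM in Tomato, adjusted p = 0.0213), named after its values were seen. The Rhbdf2 call was lost without GFP replicate 1 (-0.86, adjusted p = 0.0654) and GFP replicate 2 (-0.80, adjusted p = 0.0735). Whether other cell types had a part in the Rhbdf2 result was not tested.

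Of 15 genes of adaptors and relays behind the receptors 5 were higher and none lower (median 0.10). Plcg1, which encodes phospholipase C gamma 1, had 43.6 ± 9.73 CPM in GFP and 26.2 ± 2.19 CPM in Tomato (0.73, adjusted p = 0.0116), and Sos1, an exchange factor that activates RAS, 27.9 ± 3.30 CPM in GFP and 19.2 ± 2.19 CPM in Tomato (0.54, adjusted p = 0.0157). Without Tomato replicate 2 both calls were lost (Plcg1 0.69, adjusted p = 0.052, and Sos1 0.54, adjusted p = 0.0581), as was that of Sos1 without GFP replicate 1 (0.44, adjusted p = 0.0606). The adaptor genes Grb2 (-0.17, adjusted p = 0.177) and Shc1 (0.10, adjusted p = 0.386) did not pass.

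Of 19 genes that restrain ErbB signalling 4 were higher and 1 lower (median 0.22). Spry1, a feedback inhibitor of the RAS and ERK pathway, had 109 ± 9.49 CPM in GFP and 56.1 ± 11.4 CPM in Tomato (0.96, adjusted p = 0.00283). Lrig1, a membrane protein that promotes the breakdown of ErbB receptors, had 45.4 ± 2.97 CPM in GFP and 32.0 ± 0.0717 CPM in Tomato (0.50, adjusted p = 0.00467). Cav1, which encodes the caveolae protein caveolin 1, was lower (291 ± 38.8 CPM in GFP, 646 ± 82.4 CPM in Tomato, -1.15, adjusted p = 0.000931). Caveolin 1 is abundant in endothelium and in mesothelium as well, and the part of these cells was not tested. Errfi1, an inhibitor of the EGF receptor kinase, did not pass (0.40, adjusted p = 0.104).

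Of 16 feedback and target genes of ERK signalling 2 were higher and 3 lower (median 0.08). Dusp5 (43.1 ± 6.68 CPM in GFP, 99.2 ± 6.16 CPM in Tomato, -1.20, adjusted p = 0.000402) and Dusp6 (37.2 ± 4.46 CPM in GFP, 69.4 ± 11.5 CPM in Tomato, -0.90, adjusted p = 0.00293), phosphatases that switch ERK off and that ERK induces, were lower. Ptgs2, which encodes the prostaglandin synthase COX-2 (1842 ± 358 CPM in GFP, 1252 ± 140 CPM in Tomato, 0.56, adjusted p = 0.0335), and Phlda1 (192 ± 14.8 CPM in GFP, 140 ± 29.3 CPM in Tomato, 0.45, adjusted p = 0.0473) were higher. The calls of Ptgs2 and Phlda1 were lost in 5 and 8 of 18 other fits, with an adjusted p of up to 0.126 and 0.155. For Ptgs2 these were scaling by library size alone (0.39, adjusted p = 0.0681) and the fits without GFP replicate 1 (0.40), GFP replicate 2 (0.60), Tomato replicate 2 (0.51) or Tomato replicate 3 (0.50), and for Phlda1 those without any single library other than Tomato replicate 1 (0.33 to 0.51) among others. Etv4 and Etv5, transcription factor genes that ERK induces, had log2 fold changes of 0.02 each (adjusted p = 0.941 and 0.915).

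**Figure D5:**
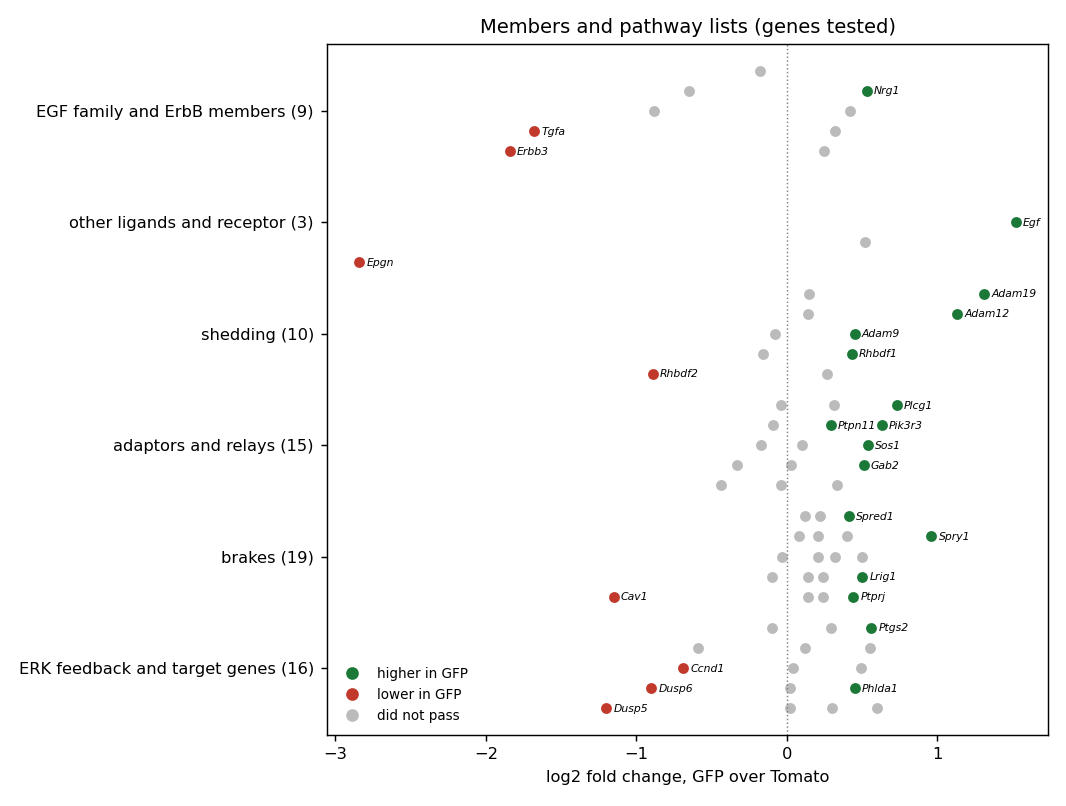
Log2 fold change, GFP over Tomato, of the tested members and of the tested genes of 5 pathway lists (number tested in brackets), in green where higher in GFP, red where lower and grey where the test was not passed; the vertical spread within a list has no meaning. Members range from -1.84 (Erbb3) to 0.53 (Nrg1), and the lists from -2.84 (Epgn) to 1.52 (Egf).

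The profile of each member over the 6 libraries was set beside the other members and beside 12609 protein-coding genes with a mean of at least 1 CPM, by the root mean square difference of log2 CPM after centring each gene on its own mean. Between members the smallest differences were those of Egfr and Erbb2 (0.175), Ereg and Nrg1 (0.212) and Nrg1 and Erbb2 (0.229). The difference between Tgfa and Erbb3, the genes called lower in GFP, was 0.357. The genes most like Tgfa were Net1 (0.067) and Trf, which encodes transferrin (0.077). Those most like Erbb3 were Shroom2 (0.167) and Patj (0.182), which encode proteins of the apical side of epithelial cells. Those most like Egfr were Abtb2 (0.030) and Pom121 (0.031), and those most like Erbb2 were Cep170b (0.030) and Usp8 (0.034), a deubiquitinase that acts on ErbB receptors. For Nrg1 they were Fmnl3 (0.034) and Mical2 (0.085), for Ereg Arntl2 (0.076) and Fgf11 (0.078), for Hbegf Grpel2 (0.044) and Aptx (0.059), for Btc Atf3 (0.1) and Fam117a (0.101), and for Areg Sapcd2 (0.056) and Cd80 (0.143). With 6 libraries and so many genes, close profiles of this kind are a description of these libraries.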

How the data were processed

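RNA of 3 GFP and 3 Tomato libraries was made into libraries from 150 ng of total RNA with a TruSeq kit, per the labels' protocols. The authors deposited raw read counts per Ensembl gene, for both strands together and for each strand, per the file headers. Trim Galore 0.4.3, STAR 2.5.2b and GRCm38 are named in the submitters' processing notes, without roles, and the annotation release is not given in the sources used here. Both strand columns were nearly equal (ratio 1.002 to 1.006), so the column for both strands was used, and antisense reads cannot be told apart. Names, coordinates (1-based) and exon lengths came from GENCODE M21, which 49412 of 49671 genes matched; the 259 others held 0.00762% of counts. RPKM uses the union of a gene's exons, which lowers the value of genes with many transcripts such as Nrg1.

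Differences between GFP and Tomato were tested with edgeR 4.0.16 (quasi-likelihood, two-sided, under R 4.3.3) with TMM scaling, filterByExpr, robust estimation and no block, adjusted by Benjamini-Hochberg over all 15608 genes tested, with a threshold of 0.05. SE is the absolute log2 fold change over the root of F, and intervals follow from it. The labels do not say whether replicates are separate animals, so p-values may measure technical spread. No libraries were duplicates, since replicates had chi-square values of 28.1 to 120 per degree of freedom. Libraries of equal number deviated together (correlations 0.403, 0.108 and 0.347, each over 0.1, against -0.392 to 0.0281 for unequal numbers), so numbers were taken to pair libraries, from the data and not the labels. Since each group was centred on its own mean, these values depend on each other, and the low ones are not separate evidence. The p-values with the block rest on this choice from the same data. Depth lets small differences be seen for abundant genes, while genes below 1 CPM rest on few reads; limits for counts of 0 cover counting error only.

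Members, lists and tests were chosen with earlier results of these data known. Named in each pathway list were the 2 genes up and 2 down with the smallest adjusted p; Adam10, Adam17, Rhbdf1, Grb2, Shc1, Errfi1, Etv4 and Etv5 were added after their values were seen. Alternatives were other scalings and filters, DESeq2 1.42.0, limma-voom 3.58.1, the block, a length and GC correction, 1 strand, protein-coding genes, a threshold of 0.01 and leaving out each library.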

Additional observations from a re-analysis of the deposited data

How the results depend on the processing

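No member changed direction in any alternative. Tgfa and Erbb3 stayed lower throughout, and Hbegf never passed. Of the 9 members, the number higher in GFP (1 in the fit as reported) was 0 with library size scaling, a filter of 1 CPM in 3 libraries, limma-voom or a threshold of 0.01, 2 with no filter or DESeq2, 3 with the replicate block (Nrg1, Egfr and Erbb2) and 3 with the block and the length and GC correction (Ereg, Nrg1 and Egfr). It was 0 to 2 when 1 library was left out. The number lower (2) was 4 with DESeq2 and with the replicate block, 3 with the block and that correction, in which Areg was lost, and 2 to 3 when 1 library was left out.

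Over all genes, 2049 were higher and 2456 lower. Scaling by library size gave 1128 higher and 3851 lower (22.7% of calls higher, against 45.5%), and moved the median over all genes to -0.16 (log2). With the length and GC correction that median was 0.11 and 1618 genes were lower (62.7% of calls higher). With the replicate block 3137 were higher, and 4001 with that correction and the block (64.7%). A threshold of 0.01 left 578 higher and 1083 lower. Leaving out 1 library gave 833 to 2392 higher and 1380 to 2793 lower, the lowest without Tomato replicate 2 and without GFP replicate 1. Of the pathway genes, 16 were higher and 6 lower. The number higher was 7 with library size scaling, 25 with the replicate block, 30 with the correction and the block, 4 at a threshold of 0.01 and 5 to 20 when 1 library was left out. The number lower was 3 at that threshold and 3 to 7 when 1 library was left out. The differences in ligand share moved when CPM replaced RPKM (Areg -2.61, Tgfa -5.31 and Nrg1 2.77 percentage points, against -7.90, -3.22 and 1.28) or the longest transcript gave the length (Tgfa -3.74 and Nrg1 2.11). Without 1 library these ran from -10.9 to -5.06 for Areg, -5.34 to -0.0851 for Hbegf and -1.23 to -0.302 for Btc. The cause of these changes was not tested. Erbb3, Epgn and Egf are limited by depth.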
